A study of Gallus gallus with 15 samples.

Results

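The genes described here carry out excitation-contraction coupling and hold the calcium store of the muscle fibre. The list named 10 genes, ATP2A1, RYR3, CASQ2, CACNA1S, STAC3, JPH1, JPH2, TRDN, PVALB and SLN, and a gene was a member if its symbol stood in the table of expression values. Of these, 8 were found among 23599 gene names, and ATP2A1 and JPH2 had no matching name and were not analysed here. The values came from breast muscle of 15 hens of the Jingyuan chicken (Gallus gallus), 5 each at ages of 42, 126 and 180 days, all raised on the same farm with free access to feed and water. Birds of the 42-day group weighed 0.422 ± 0.03 kg, those of the 126-day group 1.68 ± 0.14 kg and those of the 180-day group 2.03 ± 0.09 kg. The labels name no drug, mutation or other treatment, and age and what goes with it, such as body weight, cannot be told apart. Messenger RNA was sequenced, and each value is in FPKM (fragments per kilobase of transcript, scaled to the mapped fragments of the library), so levels of different genes are compared per length.

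An action potential runs into the fibre along the T-tubules, where the L-type calcium channel, with CACNA1S as its voltage-sensing pore subunit, meets the ryanodine receptors of the sarcoplasmic reticulum. STAC3 is an adaptor that the channel needs to work, junctophilins such as JPH1 hold both membranes together, and triadin (TRDN) links the ryanodine receptor to calsequestrin, the store's calcium buffer. Bird fast muscle is known for carrying RYR3 protein beside RYR1, whereas adult mammalian fast muscle relies on RYR1. After release, the pump ATP2A1 returns calcium to the store, sarcolipin (SLN) restrains that pump, and parvalbumin (PVALB) binds calcium in the cytosol.

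The labels place the samples in breast muscle but also carry the words myoblast and primary cell. Fast fibre genes were the strongest of the marker lists, with 6 of 16 listed genes found and summed levels of 13965 to 33721 FPKM at 42 days, 22261 to 31454 FPKM at 126 days and 20433 to 31153 FPKM at 180 days, none at 0 in all birds. Genes of satellite cells and myoblasts (7 of 9 found, none at 0 in all birds) summed to 1265 to 2948 FPKM at 42 days, 508 to 1722 FPKM at 126 days and 1713 to 2622 FPKM at 180 days, most of it from DES, which mature fibres also express. PAX7 and MYF5, which mark satellite cells and myoblasts more closely, averaged 4.69 and 10.4 FPKM at 42 days, 3.22 and 4.19 FPKM at 126 days, and 2.54 and 2.82 FPKM at 180 days. MYOD1, a myogenic factor of the same list, was higher, with 123 ± 53.1 FPKM at 42 days, 214 ± 208 FPKM at 126 days and 97.0 ± 30.4 FPKM at 180 days (SD, n = 5 each) and up to 573 FPKM in bird 3 of 126 days. Slow fibre genes (10 of 11 found, MYL2 at 0 in all birds) had median sums of 1826.5, 2901.6 and 3645.7 FPKM at 42, 126 and 180 days. Most of this came from TNNC1, with means of 2051, 2801 and 3465 FPKM at these ages. MYL3 and MYH7 were at most 0.69 and 0.06 FPKM. Other genes of this list differed in direction. MYOZ2 averaged 9.39, 1.24 and 2.01 FPKM and TNNI1 2.15, 0.24 and 0.22 FPKM at 42, 126 and 180 days. MB averaged 3.55, 6.44 and 60.4 FPKM, with 192.6 FPKM in bird 5 of 180 days. The RNA thus carried fast fibre markers at high levels, with TNNC1 of the slow fibre list and myogenic markers present as well. Read counts were not used, and the sequencing depth and the counting error of each value are unknown. In bulk RNA, fewer cells of a type and less RNA per cell cannot be told apart.

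A few birds stood apart from the others of their age. Bird 5 of 42 days had the lowest fast fibre sum of all (13965 FPKM) and was the lowest of its age for 6 of the 7 members other than PVALB. Bird 1 of 126 days and bird 1 of 180 days were each the lowest of their age for 5 of these 7. Bird 1 of 180 days also had the highest sums of T cell (126.9 FPKM, 10 of 11 genes found), B cell (3079 FPKM, 4 of 6) and myeloid genes (1482 FPKM, 8 of 8). Bird 1 of 126 days had the highest sums of fibroblast (1272 FPKM, 6 of 6), erythrocyte (276 FPKM, 5 of 8) and endothelial genes (183 FPKM, 6 of 6). Each bird was left out in turn, and the bird is named wherever this changed the call of a member or a named gene.

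Members spanned a wide range of levels. CASQ2 was the most abundant member at each age, with 973 ± 255 FPKM at 42 days, 597 ± 79.6 FPKM at 126 days and 533 ± 110 FPKM at 180 days (SD, n = 5 each). TRDN, JPH1 and SLN followed with age means between 270.5 and 505 FPKM, then CACNA1S, STAC3 and RYR3 with means between 41.8 and 119.0 FPKM, and PVALB was near 0. Among neighbours in this order the birds overlapped, apart from SLN over CACNA1S and RYR3 over PVALB at 42 days, CASQ2 over JPH1, SLN over RYR3, RYR3 over STAC3 and CACNA1S over PVALB at 126 days, and SLN over RYR3 and CACNA1S over PVALB at 180 days. The order itself changed with age. TRDN stood above JPH1 in 4 of 5 birds at 42 days, whereas JPH1 stood above TRDN in 5 of 5 at 126 days and 3 of 5 at 180 days. Lower down, CACNA1S stood above STAC3 in 5 of 5 birds at 42 days, whereas STAC3 stood above CACNA1S in 4 of 5 birds at 126 days and in 3 of 5 at 180 days. STAC3 stood above RYR3 in 3 of 5 birds at 42 days, and RYR3 above STAC3 in 5 of 5 at both later ages.

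**Figure D1:**
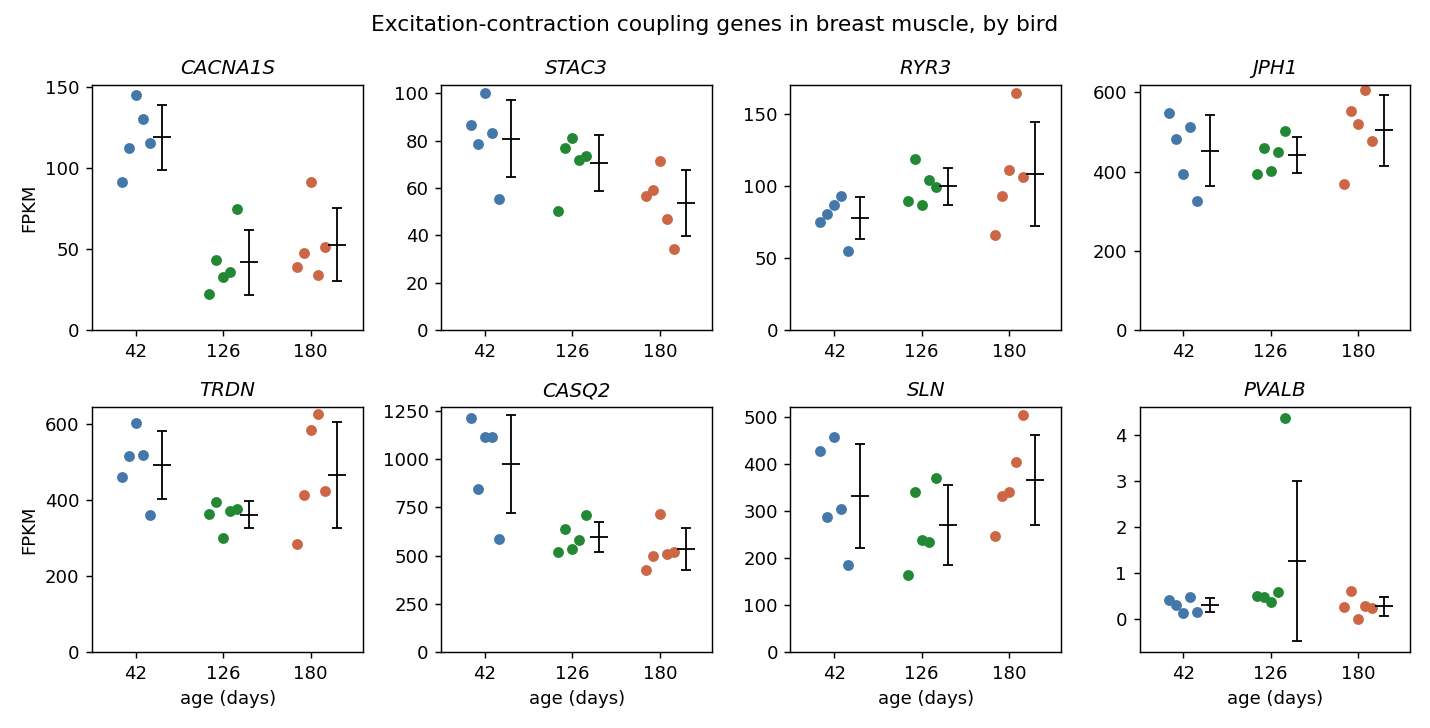
FPKM of the 8 members (vertical axis, linear, a scale of its own in each panel) against age in days; each point is 1 bird and the dash with bars is the mean ± SD of 5 birds. All birds of 126 and 180 days lie below all birds of 42 days for CACNA1S, whereas the ages overlap in the other 7 panels.

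For each pair of ages, limma was fitted to log2(FPKM + 0.1) over all genes that averaged 0.5 FPKM or more in the 10 birds, and a differentially expressed gene (DEG) had an adjusted p (Benjamini-Hochberg over all genes tested) under 0.05 and a change of at least 2-fold, the later age over the earlier. PVALB reached this minimum only through 1 bird of 126 days, so its level is given below without a test, and the counts are of the other 7 members. Of these 7, 1 was a DEG between 126 and 42 days, and it was lower at 126 days. Of all 11482 genes tested, 2.46% were DEGs in either direction and 1.92% were lower. Between 180 and 42 days 1 of 7 was a DEG, again lower. Of 11692 genes, 2.93% were DEGs in either direction and 2.46% were lower. Between 180 and 126 days limma called 0 of 7 members, and 0 had an unadjusted p under 0.05, against 0.921% and 15.8% of 11515 genes. At an unadjusted p under 0.05 there were 3 members in each comparison with 42 days, beside 19.6% and 17.6% of all genes. The median log2 fold change of the 7 was −0.29, −0.11 and 0.18 for 126 over 42, 180 over 42 and 180 over 126 days, beside −0.15, −0.13 and 0.01 over all genes tested. The number of members is small, and the counts are given as a description of these genes.

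CACNA1S was the DEG in both comparisons with 42 days. The voltage sensor had 22.4, 43.2, 32.7, 36.1 and 74.6 FPKM at 126 days, against 91.6, 112.2, 145.1, 130.3 and 115.7 FPKM at 42 days. The highest bird of 126 days was thus below the lowest of 42 days, and 5.08% of all genes tested lay lower without overlap in this comparison. The mean was 41.8 ± 19.8 FPKM at 126 days and 119.0 ± 20.1 FPKM at 42 days (SD, n = 5 each), 0.351 times the 42-day level. On the log2 scale this was −1.61 ± 0.27 (SE, 95% interval −2.20 to −1.01, limma, adjusted p = 0.0144).

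At 180 days CACNA1S had 39.1, 47.6, 91.4, 34.3 and 51.0 FPKM, with a mean of 52.7 ± 22.6 FPKM (SD, n = 5), 0.443 times the 42-day mean. Bird 3 of 180 days came within 1 FPKM of the lowest 42-day bird (91.36 against 91.62 FPKM), so the ages did not overlap but nearly touched. Of all genes tested, 4.46% lay lower without overlap in this comparison. The log2 fold change was −1.25 ± 0.24 (SE, 95% interval −1.78 to −0.71, limma, adjusted p = 0.0165). Between 180 and 126 days the log2 fold change was 0.36 ± 0.32 (SE, 95% interval −0.34 to 1.06, limma, adjusted p = 0.666), and the birds overlapped. CACNA1S stayed a DEG in both comparisons with 42 days with any 1 bird left out, with adjusted p between 0.00572 and 0.0426 for 126 over 42 days and between 0.00507 and 0.0471 for 180 over 42 days by limma.

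Marker lists also differed between 126 and 42 days. T cell genes (10 of 11 found) summed to 17.1 to 43.4 FPKM at 126 days, against 4.79 to 13.0 FPKM at 42 days, and B cell genes (4 of 6 found) to 130.01 to 336 FPKM at 126 days, against 1.74 to 33.5 FPKM at 42 days, both without overlap. Within the T cell list CD4 went the other way, with means of 0.71 and 1.32 FPKM. Most of the B cell sum came from IGLL1 and JCHAIN. Their means were 158 and 32.6 FPKM at 126 days, against 7.90 and 4.59 FPKM at 42 days. CD79B (0.26 and 0.24 FPKM) and PAX5 (0.02 FPKM at both ages) were near 0. Cardiac genes (4 of 8 found) had medians of 6.54 FPKM at 126 days and 33.4 FPKM at 42 days, with sums that overlapped. Most of this came from ACTC1, with means of 9.29 and 38.1 FPKM. NPPA (0.158 FPKM at both ages), MYBPC3 (0.306 and 1.35 FPKM) and TNNT2 (1.13 and 0.744 FPKM) were low and differed in direction. At 180 days the T and B cell sums, 8.62 to 126.9 and 6.13 to 3079 FPKM, overlapped with those of 42 days, and the cardiac median was 3.21 FPKM. None of the genes found in the T cell, B cell and cardiac lists was at 0 in all birds. Other lists differed between 126 and 42 days as well, with sums that overlapped. Fibroblast medians were 250.1 and 562 FPKM, smooth muscle medians 21.2 and 46.6 FPKM, and adipocyte medians 24.6 and 43.0 FPKM. Higher medians at 126 than at 42 days were those of myeloid (190.9 and 114 FPKM), erythrocyte (49.35 and 41.98 FPKM) and endothelial genes (107 and 88.6 FPKM). Fast fibre sums overlapped between all ages, and the genes of that list differed in direction. MYH1B, a fast myosin heavy chain, averaged 374 ± 158 FPKM at 126 days and 458 ± 183 FPKM at 180 days, against 747 ± 198 FPKM at 42 days (SD, n = 5 each). MYH1C, MYL1 and TNNC2 also had their highest mean at 42 days. TNNT3 and TNNI2 had their lowest there, with 8487 and 2083 FPKM, against 10610 and 2536 FPKM at 126 days and 11160 and 2822 FPKM at 180 days. The part of these differences in the lower CACNA1S was not tested.

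The table lists CACNA1S as 2 entries under 1 name, which were summed, and the file does not say how the entries differ. Entry 1 had 17.9, 33.2, 22.5, 36.1 and 11.4 FPKM at 126 days, against 16.8, 75.8, 21.5, 83.3 and 87.6 FPKM at 42 days. Entry 2 had 4.47, 9.95, 10.2, 0 and 63.2 FPKM at 126 days, against 74.8, 36.4, 123.6, 47.0 and 28.1 FPKM at 42 days. In birds 1 and 3 of 42 days, where entry 1 was low, entry 2 held most of the sum. The same was so in bird 5 of 126 days. Neither entry alone separated 126 from 42 days, as their sum did. Entry 2 had 7.26, 6.53, 15.8, 0 and 5.63 FPKM at 180 days and lay below all 42-day birds there. Tested alone, entry 2 had log2 fold changes of −3.44 (limma, adjusted p = 0.331) for 126 over 42 days and −3.99 (adjusted p = 0.195) for 180 over 42 days, and entry 1 had −1.03 (adjusted p = 0.450) and −0.08. None of these passed, whereas 0.195% of 17937 entries did for 126 over 42 days and 0.599% of 18186 for 180 over 42 days. The call of CACNA1S therefore rests on the summed level: with the entry of the highest mean alone, tested beside the highest entry of every other name, its log2 fold change was −1.03 (limma, adjusted p = 0.379) for 126 over 42 days and −0.08 (adjusted p = 0.965) for 180 over 42 days.

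STAC3, the adaptor of the same channel, had 50.3, 76.8, 81.0, 71.6 and 73.6 FPKM at 126 days and 56.6, 59.1, 71.6, 47.0 and 34.4 FPKM at 180 days, against 86.5, 78.7, 100.2, 83.4 and 55.5 FPKM at 42 days. Birds of all ages overlapped. Its log2 fold change was −0.19 (95% interval −0.60 to 0.23, limma, adjusted p = 0.626) for 126 over 42 days, −0.60 (−1.08 to −0.13, adjusted p = 0.160) for 180 over 42 days and −0.42 (−0.86 to 0.02, adjusted p = 0.347) for 180 over 126 days. STAC3 had 1 entry in the table.

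RYR3, a release channel, averaged 78.1 ± 14.6 FPKM at 42 days, 99.8 ± 12.7 FPKM at 126 days and 108.3 ± 36.0 FPKM at 180 days (SD, n = 5 each). The highest bird was bird 4 of 180 days with 164.7 FPKM and the lowest bird 5 of 42 days with 54.9 FPKM, and the ages overlapped. On the log2 scale the difference was 0.37 (95% interval −0.01 to 0.74, limma, adjusted p = 0.264) for 126 over 42 days and 0.43 (−0.07 to 0.94, adjusted p = 0.369) for 180 over 42 days. For 180 over 126 days it was 0.07 (−0.39 to 0.52, adjusted p = 0.929).

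The summed level of RYR3 hid a change of entries from bird to bird. Of its 4 entries, entry 1 was the highest in 9 birds, entry 3 in 3, entry 4 in 2 and entry 2 in 1. Entry 1 had 0.76, 79.7, 7.35, 58.5 and 50.7 FPKM at 42 days, 0.31, 7.64, 83.8, 98.3 and 0 FPKM at 126 days, and 0, 87.6, 106.7, 153.2 and 63.1 FPKM at 180 days. Bird 5 of 126 days thus had none of entry 1 and 82.7 FPKM of entry 4, which was at most 0.13 FPKM in the other birds of that age. These switches were found within each age, and a comparison of ages by a single RYR3 entry was dominated by them: with the entry of the highest mean alone, the log2 fold change for 126 over 42 days turned to −1.84 (limma, adjusted p = 0.695). What the entries stand for is not said in the table.

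**Figure D2:**
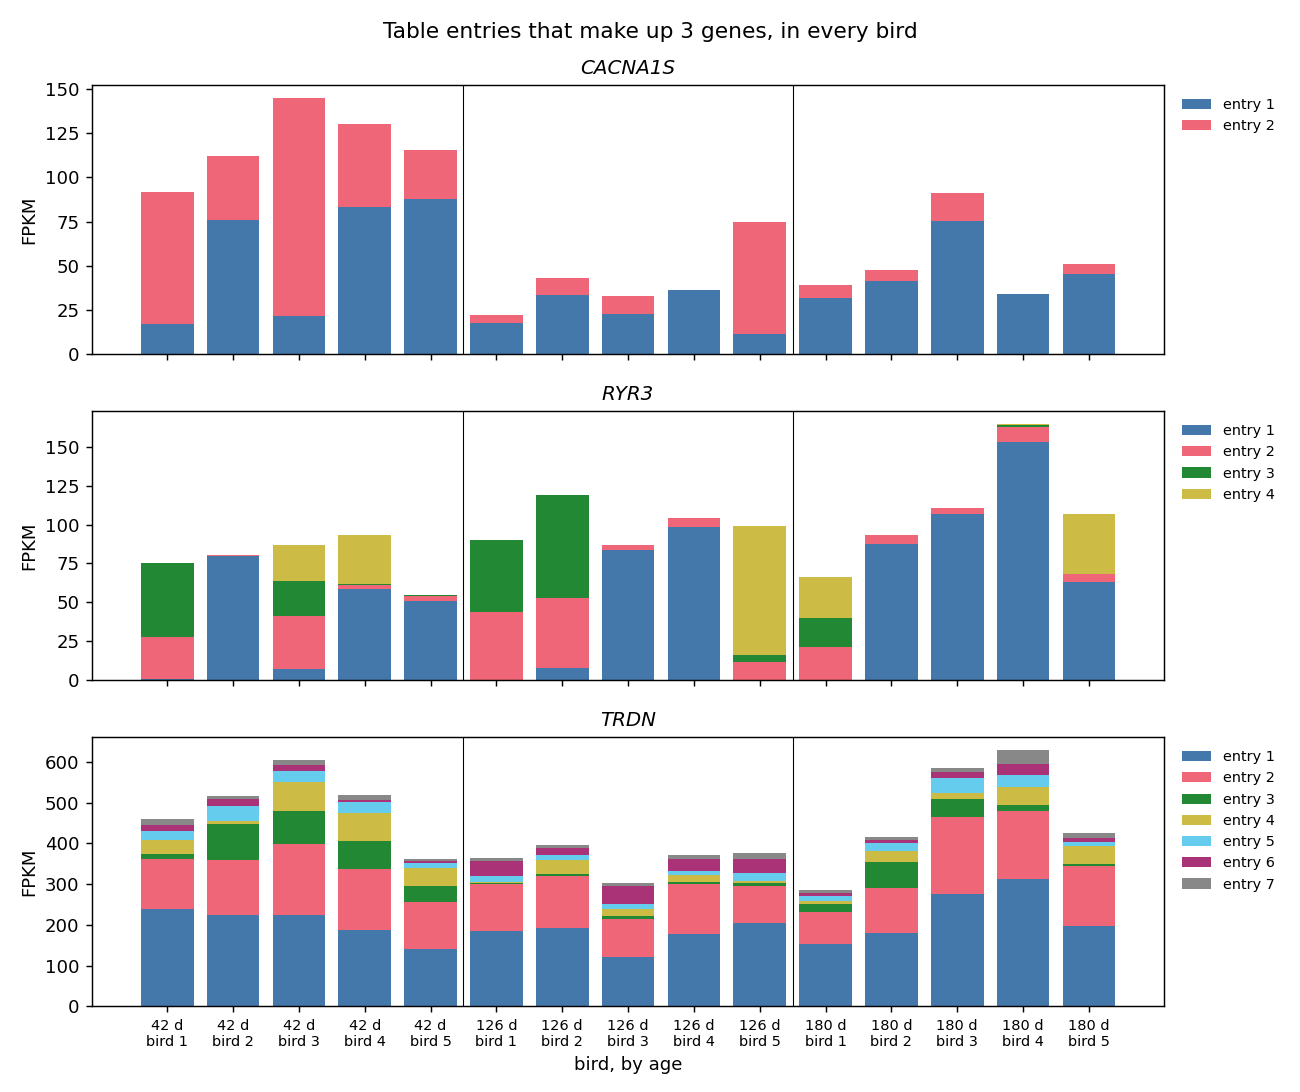
Stacked FPKM of the table entries (vertical axis, linear) that share the names CACNA1S, RYR3 and TRDN, for each of 15 birds ordered by age (horizontal axis); colours mark entries in order of their mean. The sum of RYR3 varies by 3.00-fold over the birds while its leading entry changes, CACNA1S drops after 42 days in the sum of its 2 entries, and TRDN is made up mainly of entries 1 and 2.

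JPH1, a junctophilin of skeletal muscle, was the steadiest member, with 1.85-fold between its lowest and highest bird. Its level was 453 ± 90.3 FPKM at 42 days, 442 ± 44.9 FPKM at 126 days and 505 ± 89.8 FPKM at 180 days (SD, n = 5 each). The fitted log2 fold change was −0.02 (95% interval −0.40 to 0.37, limma, adjusted p = 0.965) for 126 over 42 days, 0.16 (−0.25 to 0.58, adjusted p = 0.724) for 180 over 42 days and 0.18 (−0.16 to 0.52, adjusted p = 0.649) for 180 over 126 days. A 2-fold change in either direction lies outside all 3 intervals.

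TRDN had 365, 395, 302, 372 and 377 FPKM at 126 days and 284, 415, 584, 629 and 425 FPKM at 180 days, against 461, 517, 603, 519 and 361 FPKM at 42 days. The birds of 126 days lay close together and those of 180 days were spread over more than the range of both other ages. The log2 fold change was −0.43 (95% interval −0.80 to −0.06, limma, adjusted p = 0.195) for 126 over 42 days, −0.11 (−0.60 to 0.39, adjusted p = 0.855) for 180 over 42 days and 0.32 (−0.13 to 0.77, adjusted p = 0.503) for 180 over 126 days.

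Among the 7 entries of TRDN, entry 3 had 3.21, 5.05, 6.56, 4.61 and 7.52 FPKM at 126 days, against 12.4, 87.1, 82.6, 69.7 and 40.1 FPKM at 42 days. No bird of 126 days reached the lowest of 42 days. Tested alone among all entries, entry 3 had a log2 fold change of −3.18 ± 0.51 (SE, limma, adjusted p = 0.0423) in this comparison. This call was at the edge of the threshold: it was lost without any 1 of 9 birds, all but bird 1 of 42 days, with adjusted p up to 0.108, and held in 4 of 7 alternatives. At 180 days entry 3 had 18.9, 65.2, 43.8, 13.2 and 4.53 FPKM, which overlapped with both other ages. Entry 6 had 32.5 ± 11 FPKM at 126 days and 12.1 ± 5.74 FPKM at 42 days (SD, n = 5 each, log2 fold change 1.49, limma, adjusted p = 0.146).

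CASQ2, in mammals the calsequestrin of heart and slow fibres, had 518, 639, 534, 580 and 712 FPKM at 126 days and 424.0, 496, 718, 508 and 520.4 FPKM at 180 days, against 1212, 845, 1112, 1112 and 587 FPKM at 42 days. In 4 of 5 birds of 42 days it was above all birds of both later ages, and bird 5 of 42 days lay among them. Its log2 fold change was −0.67 ± 0.22 (SE, 95% interval −1.14 to −0.20, limma, adjusted p = 0.119) for 126 over 42 days and −0.84 ± 0.22 (−1.33 to −0.36, adjusted p = 0.0601) for 180 over 42 days, and neither passed. Without bird 5 of 42 days, which also had the lowest fast fibre sum, CASQ2 was a DEG for 180 over 42 days with −1.01 (limma, adjusted p = 0.0113), and for 126 over 42 days it had −0.84 (adjusted p = 0.0233), a change of under 2-fold. For 180 over 126 days the value was −0.17 (−0.53 to 0.18, adjusted p = 0.682). CASQ1, the mammalian fast fibre calsequestrin, was the less abundant paralogue, with 113 ± 32.2 FPKM at 42 days, 91.8 ± 43.6 FPKM at 126 days and 96.5 ± 23.4 FPKM at 180 days (SD, n = 5 each).

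SLN, the small inhibitor of the calcium pump, was measured through 1 entry at 333 ± 111 FPKM at 42 days, 271 ± 84.7 FPKM at 126 days and 366 ± 95.7 FPKM at 180 days (SD, n = 5 each). Birds ranged between 165.0 FPKM in bird 1 of 126 days and 505 FPKM in bird 5 of 180 days, with all ages overlapping. On the log2 scale the difference was −0.29 (95% interval −0.90 to 0.32, limma, adjusted p = 0.606) for 126 over 42 days, 0.17 (−0.40 to 0.74, adjusted p = 0.792) for 180 over 42 days and 0.46 (−0.08 to 0.99, adjusted p = 0.402) for 180 over 126 days. Phospholamban (PLN), its relative of heart and slow fibres in mammals, was far less abundant, with age means of 1.51, 0.58 and 1.60 FPKM at 42, 126 and 180 days. Of the other pumps of the store, ATP2A2 had 7.92 ± 2.70 FPKM at 42 days, 8.03 ± 2.09 FPKM at 126 days and 5.06 ± 3.34 FPKM at 180 days (SD, n = 5 each). Bird 1 of 180 days had 10.7 FPKM and the other 4 of that age 2.70 to 5.41 FPKM. Neither comparison of 180 days passed (limma, adjusted p = 0.328 over 42 days and 0.300 over 126 days), but without bird 1 of 180 days ATP2A2 was a DEG in both, at −1.08 (adjusted p = 0.0464) and −1.12 (adjusted p = 0.0416). ATP2A3, a pump of blood and other non-muscle cells in mammals, was between 0.94 and 3.64 FPKM in 14 birds and 12.2 FPKM in bird 1 of 180 days, the bird with the highest sums of immune cell genes, whose part in this value was not tested.

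PVALB was listed at 0.42, 0.31, 0.14, 0.47 and 0.15 FPKM at 42 days, 0.5, 0.48, 0.36, 0.59 and 4.37 FPKM at 126 days, and 0.26, 0.6, 0, 0.28 and 0.24 FPKM at 180 days. Bird 5 of 126 days was the exception to a uniformly low level, and the ages overlapped. The mean of that age, 1.26 FPKM, was set by this bird, and without it PVALB averaged under the minimum for a test at every age. Its relatives the oncomodulins were as low, with OCM1 listed at 0 in all birds and OCM3 at 2.64 FPKM at most. The depth being unknown, a level near 0 says only that these transcripts were scarce in the libraries.

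The other genes of the pathway were taken from 7 lists by role, with 79 of 96 listed genes found. Of 67 tested between 126 and 42 days, 0 were higher and 2 lower (CACNB1 and CAV3), beside 0.549% and 1.92% of all genes tested. Of 68 between 180 and 42 days, 0 were higher and 2 lower (FKBP1B and RCN1), beside 0.462% and 2.46%. Of 68 between 180 and 126 days, 0 were higher and 1 lower (FKBP1B), beside 0.469% and 0.452%. Median log2 fold changes were −0.19, −0.18 and 0.08 in the same order, beside −0.15, −0.13 and 0.01 for all genes. No DEG was found by limma among the 9 tested genes of mitochondrial calcium uptake, where 1 gene had an unadjusted p under 0.05 in each comparison, nor among the 9 or 10 tested genes of store-operated entry and IP3 receptors, where 2, 0 and 3 did. Over all genes tested, 2.46%, 2.93% and 0.921% were DEGs and 19.6%, 17.6% and 15.8% had an unadjusted p under 0.05, so such counts are not particular to these short lists.

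CACNB1, the subunit that binds the inner side of CACNA1S and helps it to the membrane, had 10.7, 14.7, 13.2, 19.6 and 20.6 FPKM at 126 days and 16.7, 19.3, 30.6, 23.1 and 21.2 FPKM at 180 days, against 40.9, 50.9, 35.6, 47.1 and 34.2 FPKM at 42 days. No bird of the later ages reached the lowest of 42 days. The log2 fold change was −1.43 ± 0.21 (SE, 95% interval −1.88 to −0.97, limma, adjusted p = 0.00657) for 126 over 42 days, a DEG also with any 1 bird left out. With the highest entry of each name its adjusted p was 0.0596 at a log2 fold change of −1.40. For 180 over 42 days it was −0.92 ± 0.19 (−1.34 to −0.51, adjusted p = 0.0201), under the 2-fold limit but past it without bird 3 of 180 days (−1.05, adjusted p = 0.0168), and for 180 over 126 days 0.50 (adjusted p = 0.291). CACNG1, another subunit of the channel, had 161 ± 26.8 FPKM at 126 days and 174 ± 37.9 FPKM at 180 days, against 263 ± 72.7 FPKM at 42 days (SD, n = 5 each), with log2 fold changes of −0.68 (limma, adjusted p = 0.109) and −0.58 (adjusted p = 0.197). CACNA2D1, the extracellular subunit, varied widely, between 6.27 and 59.6 FPKM, with log2 fold changes of −0.41 and −0.35 for the same comparisons (limma, adjusted p = 0.705 and 0.775).

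**Figure D3:**
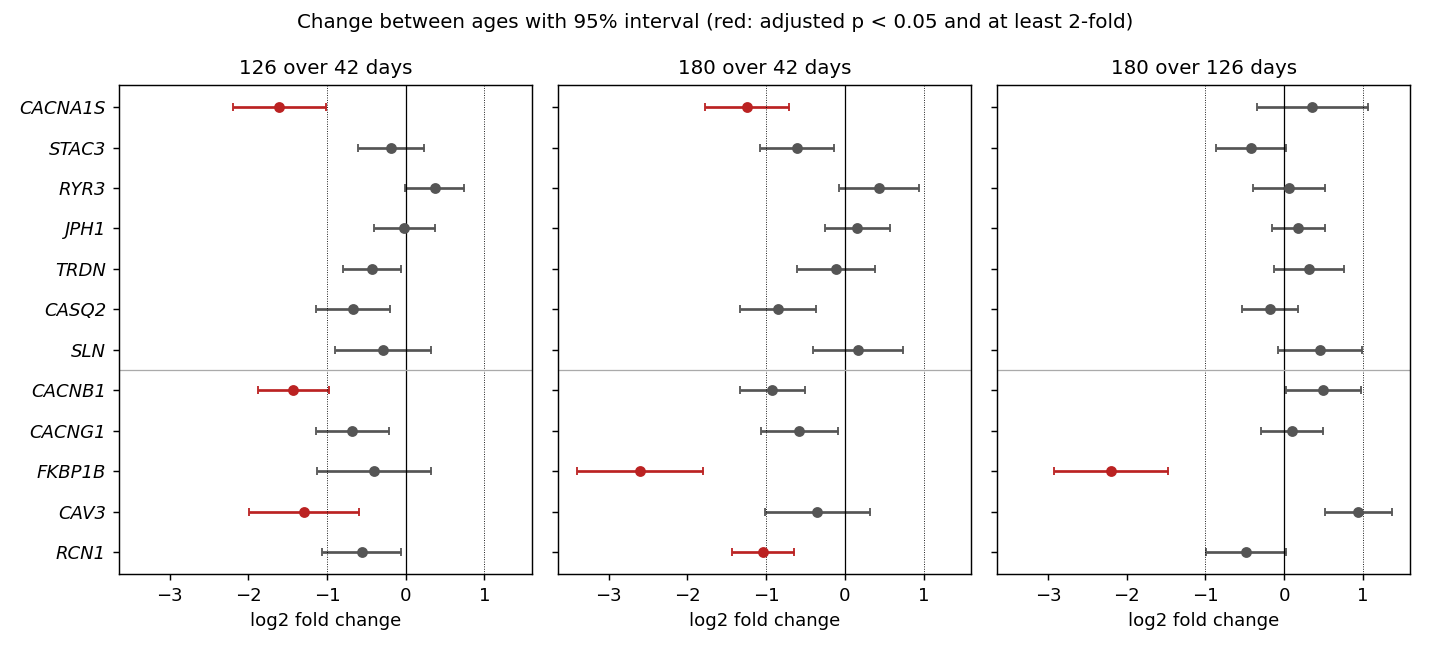
Log2 fold change with its 95% interval (horizontal axis) for 7 members, PVALB left out, and 5 other genes of the pathway (rows) in 3 comparisons, the later age over the earlier; red marks DEGs and dotted lines mark a 2-fold change. CACNA1S is red at −1.61 and −1.25 in the comparisons with 42 days, CACNB1 at −1.43 for 126 over 42 days, and FKBP1B at −2.60 and −2.20 in both comparisons of 180 days.

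Of the ryanodine receptor genes, RYR1 had no matching name and was not analysed here, and RYR2, the cardiac form, was at most 0.09 FPKM. FKBP1B, which encodes a small protein bound to ryanodine receptors and is the main such form of the mammalian heart, had 6.12, 2.36, 3.79, 1.99 and 2.23 FPKM at 180 days, against 19.2, 19.6, 10.1, 9.18 and 16.3 FPKM at 126 days and 28.9, 19.3, 17.7, 27.2 and 8.69 FPKM at 42 days. No bird of 180 days reached any bird of the younger ages. Against 126 days, 1.76% of all genes tested lay lower without overlap. Its log2 fold change was −2.60 ± 0.37 (SE, 95% interval −3.41 to −1.80, limma, adjusted p = 0.00411) for 180 over 42 days and −2.20 ± 0.33 (−2.93 to −1.48, adjusted p = 0.0149) for 180 over 126 days, and −0.40 (adjusted p = 0.539) for 126 over 42 days. The first held with any 1 bird left out, and the second was lost without bird 2 of 180 days (−2.12, adjusted p = 0.0546) and with the highest entry of each name (−2.67, adjusted p = 0.0543). FKBP1A, the more abundant relative, had 51.7 ± 6.99 FPKM at 180 days and 54.2 ± 13.3 FPKM at 126 days, against 73.3 ± 18.4 FPKM at 42 days (SD, n = 5 each, limma, adjusted p = 0.226 for 180 over 42 days).

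Of the marker lists of other cells, that of fibroblasts was also lowest at 180 days. Its genes (6 of 6 found, none at 0 in all birds) summed to 39.4 to 219 FPKM at 180 days, with a median of 79.2 FPKM, against 194 to 1272 FPKM at 126 days (median 250.1 FPKM) and 246 to 816 FPKM at 42 days (median 562 FPKM). Cardiac genes (4 of 8 found, none at 0) summed to 2.19 to 23.1 FPKM at 180 days, 4.65 to 20.7 FPKM at 126 days and 16.2 to 71.5 FPKM at 42 days, and smooth muscle genes (4 of 5, none at 0) to 16.9 to 62.6, 20.6 to 23.6 and 21.7 to 76.8 FPKM at the same ages. The cardiac sums were mostly ACTC1, with means of 6.47, 9.29 and 38.1 FPKM at these ages. The sums of each of these lists, that of fibroblasts included, overlapped between 180 and 126 days. Against 42 days the fibroblast sums of 180 days were lower without overlap, whereas the cardiac and smooth muscle sums overlapped. The part of RNA of any of these cells in the lower FKBP1B was not tested.

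CAV3, the caveolin of muscle membranes, had 20.1 ± 4.67 FPKM at 126 days and 53.2 ± 24.6 FPKM at 42 days (SD, n = 5 each). On the log2 scale the difference was −1.29 ± 0.32 (SE, limma, adjusted p = 0.0498), the birds overlapped, and the call was lost without any 1 bird other than bird 5 of 42 days (adjusted p up to 0.111) and in 6 of 8 alternatives. At 180 days CAV3 had 38.3 ± 6.64 FPKM (SD, n = 5), with no overlap with 126 days (0.95, limma, adjusted p = 0.0422, under 2-fold), where 2.54% of all genes tested lay higher without overlap. Without bird 1 of 180 days this change was 1.02 and passed as a DEG (limma, adjusted p = 0.0246). BIN1 and DYSF, which shape and repair T-tubule membranes, had their lowest mean at 126 days as well, with 176 ± 30.0 and 51.5 ± 13.0 FPKM at 126 days, against 295 ± 82.1 and 98.1 ± 29.9 FPKM at 42 days (SD, n = 5 each), and did not pass (limma, adjusted p = 0.0842 and 0.0606). At 180 days they had 270.0 ± 50.7 and 79.2 ± 12.8 FPKM (SD, n = 5 each). Without bird 5 of 42 days DYSF was a DEG for 126 over 42 days at −1.02 (limma, adjusted p = 0.0412). Both were chosen for mention after their values were seen. In the whole list of 13 genes of junction and T-tubule shaping, 12 of 13 log2 fold changes for 180 over 126 days were above 0. Their median was 0.32, beside 0.01 for all genes. Limma called 0 of them DEGs, with 4 at an unadjusted p under 0.05, beside 0.921% and 15.8% of all genes tested. Such a shift was not particular to this list. Store-operated entry and IP3 receptors had 7 of 10 above 0, with a median of 0.31, and mitochondrial calcium uptake 7 of 9. The release channel and its regulators had 5 of 14 above 0 and the calcium buffers 2 of 9.

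RCN1, a calcium-binding protein of the endoplasmic reticulum, had 7.64 ± 1.52 FPKM at 180 days and 15.8 ± 2.30 FPKM at 42 days (SD, n = 5 each). The fitted log2 fold change was −1.04 ± 0.18 (SE, 95% interval −1.43 to −0.65, limma, adjusted p = 0.00935), and no bird of 180 days reached the lowest of 42 days. Since the change was close to 2-fold, the call was lost when bird 3 of 42 days or bird 2 or 3 of 180 days was left out, at −0.99, −0.999 and −0.98 with adjusted p of 0.0253, 0.0270 and 0.0304 by limma. It was also lost in 3 of 8 alternatives, with quantile normalization (−0.92, adjusted p = 0.0244), a pseudocount of 1 (−0.96, adjusted p = 0.0101) and the highest entry of each name (−0.77, limma, adjusted p = 0.876). At 126 days RCN1 had 11.1 ± 4.25 FPKM (SD, n = 5), with its highest value, 18.4 FPKM, in bird 1. That bird had the highest fibroblast, T cell, B cell, myeloid, erythrocyte, adipocyte and endothelial sums of its age. The part of any of these cells was not tested. TMCO1, described as a calcium channel of the reticulum, had 13.1 ± 1.62 FPKM at 126 days and 24.6 ± 7.81 FPKM at 42 days (SD, n = 5 each, log2 fold change −0.86, limma, adjusted p = 0.0456, under 2-fold), and was also chosen for mention after its values were seen.

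**Figure D4:**
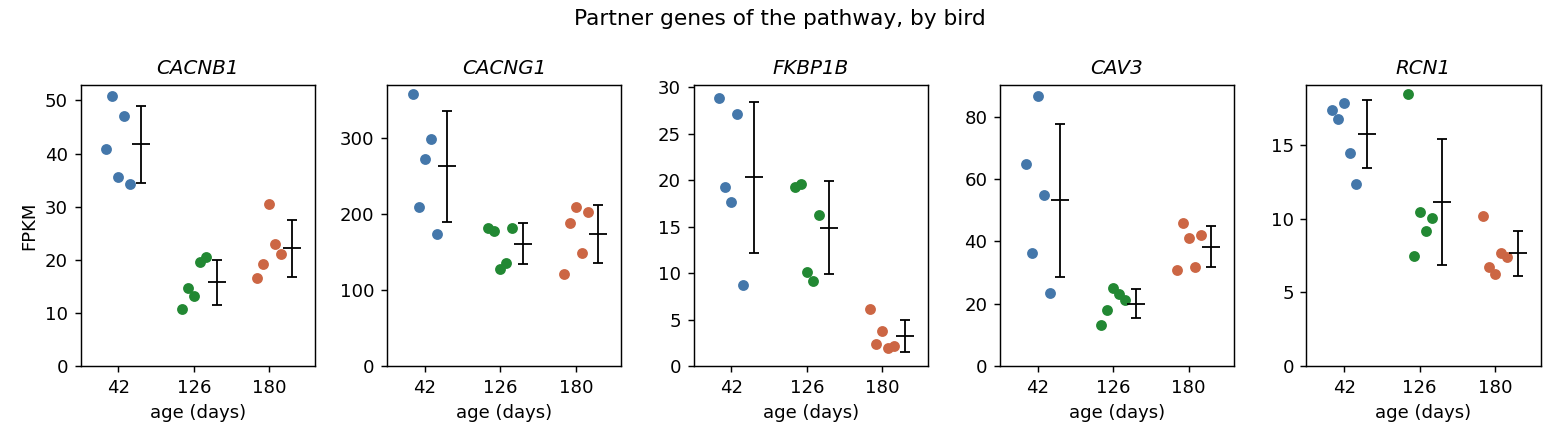
FPKM of 5 other genes of the pathway (vertical axis, linear, a scale of its own in each panel) against age in days; each point is 1 bird and the dash with bars is the mean ± SD of 5 birds. The birds of 42 days lie above all others for CACNB1, and the birds of 180 days lie below all others for FKBP1B.

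Ratios between members within a bird do not depend on how that bird was scaled, so 3 ratios were tested on the log2 scale by exact permutation of the 10 birds of each pair of ages, 9 tests in all, adjusted over the 9. The smallest p that 5 birds against 5 allow is 0.00794. A difference in a log2 ratio is the change of the upper gene less that of the lower one. RYR3 and STAC3 were both set over CACNA1S, which alone changed by −1.61 and −1.25 against 42 days. Neither RYR3 nor STAC3 was a DEG, so these ratios are not findings apart from the lower CACNA1S. RYR3 over CACNA1S was 4.02, 2.75, 2.66, 2.89 and 1.33 at 126 days and 1.70, 1.96, 1.21, 4.80 and 2.09 at 180 days, against 0.82, 0.718, 0.597, 0.714 and 0.475 at 42 days. RYR1 had no matching name, so this ratio sets only 1 of the release channels against the voltage sensor. RYR3 was thus below CACNA1S in 5 of 5 birds of 42 days and above it in 10 of 10 older birds. The log2 ratio differed by 1.97 for 126 against 42 days and by 1.68 for 180 against 42 days (exact permutation test, two-sided, p = 0.00794, adjusted p = 0.0179 each), and by −0.30 for 180 against 126 days (exact p = 0.508). With the highest entry of each gene the first 2 differences were −0.80 and 0.59 (exact p = 0.698 and 0.802), so both rest on the summed entries.

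STAC3 over CACNA1S averaged 1.895 ± 0.572 at 126 days and 0.691 ± 0.167 at 42 days (SD, n = 5 each), a log2 difference of 1.42 (exact permutation test, p = 0.00794, adjusted p = 0.0179), which was 0.85 with the highest entry of each gene (exact p = 0.254). At 180 days the ratio was 1.10 ± 0.353 (SD, n = 5), with log2 differences of 0.64 from 42 days and −0.78 from 126 days (exact p = 0.0635 and 0.0556, adjusted p = 0.0816 each). The difference from 42 days passed without bird 5 of 180 days (0.80, exact p = 0.0238, adjusted p = 0.0357). That from 126 days passed without bird 5 of 126 days (−0.996, exact p = 0.0159, adjusted p = 0.0286) and with the highest entry of each gene (−1.38, exact p = 0.00794, adjusted p = 0.0238).

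TRDN over CASQ2, the linker over the buffer it binds, was 0.671, 0.837, 0.814, 1.24 and 0.817 at 180 days, against 0.704, 0.618, 0.565, 0.641 and 0.530 at 126 days and 0.380, 0.612, 0.543, 0.467 and 0.614 at 42 days. All birds of 180 days exceeded all of 42 days, and 4 of 5 exceeded all of 126 days. The log2 difference was 0.73 for 180 against 42 days (exact permutation test, p = 0.00794, adjusted p = 0.0179) and 0.49 for 180 against 126 days (exact p = 0.0159, adjusted p = 0.0286), and 0.24 for 126 against 42 days (exact p = 0.143). With the highest entry of each gene the first 2 were 0.96 and 0.49 (adjusted p = 0.0238 each). Neither TRDN nor CASQ2 was a DEG in any comparison with all birds. For 180 over 42 days TRDN alone changed by −0.11 and CASQ2 by −0.84, so most of that difference lay in CASQ2. For 180 over 126 days they changed by 0.32 and −0.17.

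**Figure D5:**
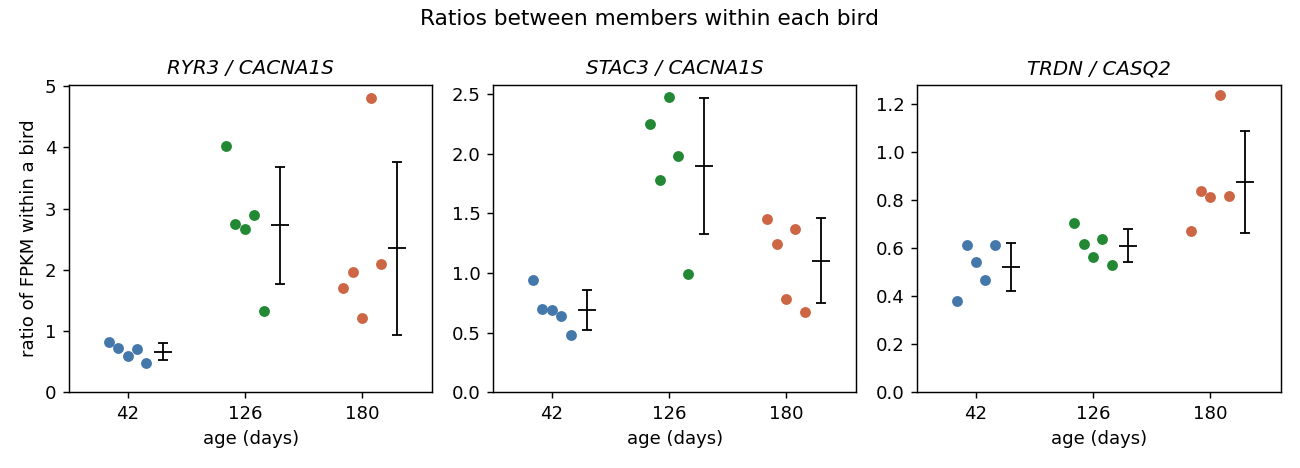
Ratio of the FPKM of 2 members within a bird (vertical axis, linear, no unit) against age in days; each point is 1 bird and the dash with bars is the mean ± SD of 5 birds. RYR3 over CACNA1S is below 1 in all birds of 42 days and above 1 in all older birds, and TRDN over CASQ2 is highest at 180 days, with a mean of 0.875.

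The 3 named genes whose log2 level followed each member most closely over the 15 birds were found among 9550 genes with a symbol, by Pearson's r, as a description. The birds share their age group, so a difference with age in the same direction raises r. CACNA1S was closest to KLHDC3 (r = 0.917), CACNB1 (0.902) and KCNJ11 (0.892), the pore of the ATP-sensitive potassium channel. KLHDC3 averaged 16.5 FPKM at 126 days and 17.4 FPKM at 180 days, against 50.0 FPKM at 42 days. CASQ2 was closest to MCAM (0.946), GPD2 (0.934), the mitochondrial glycerol-3-phosphate dehydrogenase, and PRR33 (0.898), and all 3 had their highest mean at 42 days.

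RYR3 was closest to MYOM1 (0.906), a protein of the sarcomere's M-band, APBB2 (0.890) and CFAP44 (0.808). TRDN was closest to titin, TTN (0.875), to the muscle chloride channel CLCN1 (0.851) and to KCNG2 (0.836), and JPH1 to ADSS1 (0.912), the muscle form of adenylosuccinate synthase, PCMT1 (0.903) and LGALSL (0.884). SLN was closest to NLRC5 (0.870), UMAD1 (0.851) and LARGE2 (0.834). For STAC3 (SOX10, 0.783, gga-mir-30b, 0.778, and GFM1, 0.769) and PVALB (COL12A1, 0.761, TBX18, 0.742, and RBPMS, 0.711) the closest genes were less alike, and the values of PVALB were set apart by 1 bird. CACNB1 is thus the only gene of the pathway lists among the 24 genes named here.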

How the data were processed

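Breast muscle RNA of 15 hens, 5 per age, was extracted with TRIzol and sequenced as paired ends on an Illumina instrument. The deposited FPKM were made by the authors, whose processing notes name HISAT2 2.2.1 and StringTie 2.1.6; the genome build is not given in the sources used here. The FPKM have 2 decimals, are not scaled to a common sum, and hold no counts. The authors used DESeq2, which needs counts, so limma 3.58.1 in R 4.3.3 (trend, two-sided, no covariates, the 10 birds of 2 ages at a time) was fitted to log2(FPKM + 0.1). A fold change on this scale understates changes of low genes.

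The 48836 entries were summed by gene name, since 11499 names have several; the 8 members have 23. Named genes are the members, pathway genes called in any comparison, paralogues fixed by a list and, per member, the 3 genes with the highest r. Pathway symbols of 3 genes were matched through synonyms. Of 7 ratios planned, 4 needed ATP2A1 or JPH2 and were not computed. Ratios were tested in Python 3.11.15 with scipy 1.17.1. Alternatives were rescaling to a sum of 1000000, quantile normalization, a pseudocount of 1, no filter, a mean of at least 1 FPKM, a joint fit of the 3 ages, a block for the replicate number, the highest entry of each name, and each bird left out. Testing each entry alone was added after seeing the data. Members and lists were chosen with earlier results of these data known. P-values cover the spread between birds. Procedures were tested on simulated data. No batch or date was given, and no sequence is printed since none was at hand.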

Additional observations from a re-analysis of the deposited data

Results flagged for a closer look

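In 36 groups of 5 birds, formed by the genes of the main results at each age, the highest or lowest bird was checked for a gap to the nearest other bird of over 0.71 of the group's range; chance gives about 1 in 20, and 2 were found. PVALB had 4.37 FPKM in bird 5 of 126 days, against 0.36 to 0.59 FPKM in the other 4 birds, a gap of 0.943 of the range. RCN1 had 18.44 FPKM in bird 1 of 126 days, against 7.46 to 10.43 FPKM in the other 4, a gap of 0.73 of the range.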

How the results depend on the processing

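Of the members, CACNA1S kept its call in both comparisons with 42 days in 7 of 8 alternatives and in 10 of 10 fits with 1 bird left out, and lost it with the highest entry of each name, where the members called were 0 for 126 over 42 days and 0 for 180 over 42 days; there RYR3 turned to −1.84 for 126 over 42 days and TRDN to 0.12 for 180 over 42 days. With 1 bird left out, members called were 1 to 1, 1 to 2 and 0 to 0 for 126 over 42, 180 over 42 and 180 over 126 days, pathway genes called 1 to 4, 1 to 4 and 0 to 3 (SRL added for 126 over 42 days without bird 5 of 42 days, and HOMER3 and SLC8A3 for 180 over 42 days without bird 1 of 42 days, besides the genes named above), and ratios passing 5 to 6 of 9 (5 with all birds). Leaving out 1 bird turned the sign of 4 values near 0. JPH1 for 126 over 42 days ranged from −0.13 to 0.056 (above 0 without birds 1, 2 or 4 of 42 days or birds 1 or 3 of 126 days), TRDN for 180 over 42 days from −0.23 to 0.056 (above 0 without bird 1 of 180 days), SLN for 180 over 42 days from −0.023 to 0.30 (below 0 without bird 5 of 42 days), and RYR3 for 180 over 126 days from −0.10 to 0.23 (below 0 without bird 4 of 180 days).

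Pathway genes called for 126 over 42 days were 2, and 1 under quantile normalization, a pseudocount of 1, no filter, a mean of at least 1 FPKM and the replicate block, and 0 with the highest entry. For 180 over 42 days they were 2, and 1 under quantile normalization, a pseudocount of 1 and the highest entry; for 180 over 126 days 1, and 0 with the highest entry. Ratios passing were 3 with the highest entry. All genes called were 283 for 126 over 42 days (186 with a pseudocount of 1, 169 with no filter, 51 with the highest entry, 77 to 375 with 1 bird left out, the extremes without bird 2 of 42 days and bird 1 of 126 days), 342 for 180 over 42 days (225 under quantile normalization, 172 with the highest entry, 176 to 770, the extremes without bird 2 of 42 days and bird 1 of 180 days) and 106 for 180 over 126 days (53 with no filter, 20 with the highest entry, 15 to 378, the extremes without birds 2 and 1 of 180 days). Quantile normalization moved the split of higher and lower genes for 126 over 42 days to 114 and 152, against 63 and 220, with a median log2 fold change of −0.01 against −0.15, and for 180 over 126 days to 28 and 61, against 54 and 52.

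Birds of different ages are different animals, so the main fits did not pair them by number. The deviations of birds with the same number correlated between −0.128 and 0.32. Birds 1, 4 and 5 of 180 days were each closest to the 126-day bird of their own number (r = 0.32, 0.225 and 0.109). Birds 1 and 3 of 126 days were closest to the 42-day bird of their own number (r = 0.157 and 0.138). No bird of 180 days was closest to the 42-day bird of its own number. With 5 birds to be closest to, some such matches arise by chance. This check cannot exclude something shared by birds of the same number. A block for the replicate number gave 264, 307 and 270 genes for 126 over 42, 180 over 42 and 180 over 126 days. Without it these counts were 283, 342 and 106. With the block CACNA1S stayed called in both comparisons with 42 days. Of the ratios 0 of 9 passed, the smallest exact p a block of 5 allows being 0.0625. The cause of these differences was not tested. The unknown depth limits what can be said of PVALB and other genes near 0 FPKM. With 5 birds per age the intervals are wide. Among the members other than PVALB, those of SLN and CACNA1S were the widest in each comparison.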
